A study of Calluna vulgaris with 2 samples.

Results

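Photosynthesis and sugar metabolism were followed in young flowers of common heather (Calluna vulgaris) through 8 contigs, of 12058 in all, which were picked from the annotated contigs of Additional file 2 for their functions. These are the small subunit of ribulose bisphosphate carboxylase (contig00603), chlorophyll a/b-binding proteins (contig00785 and contig03543), a photosystem II 5 kDa protein (contig01100), chloroplastic fructose-bisphosphate aldolases (contig01255 and contig01256), a fructokinase-like protein (contig00356) and a sucrose synthase (contig03346). A contig is a stretch of sequence assembled from overlapping reads, and a transcript can be spread over several contigs. Additional file 2 lists contigs that were chosen by their read numbers in the same libraries that are compared here. The read numbers of the 8 contigs are therefore given as a description, and no p-value is given for them.

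The bud library came from young flowers of 'Maria', a diplocalyx bud bloomer whose flowers stay closed, have no stamens and carry sepals in place of petals. The wild type (wt) library came from young flowers of F1, the offspring with wild type flowers of the cross between 'Maria' and 'Boskoop'. Plants of both genotypes stood in the greenhouse in winter and in the field when there was no frost, and their flowers included bracts, sepals and carpels, with petals and stamens in wt. Each flower type had 1 library from 1 genotype, so that flower type, genotype and library cannot be told apart, and the number of plants behind a library is not given in the sources used here.

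The libraries held 193454 (bud) and 157245 (wt) reads on the contigs, with a median of 7 and 6 reads per contig. Shares are given as reads per 10000 reads of a library. Intervals are exact 95% binomial intervals and cover counting error only, as the cDNA was amplified by PCR and nothing here measures how plants differ. A count of 0 reads was set to a floor of 3 reads, a share of 0.155 per 10000 in bud and 0.191 in wt. A fold against 0 reads is given at this floor, which is no limit, and beside it stands the lower limit of the exact interval, which takes in the counting error of both libraries. The table calls the libraries 1 and 2. Library 1 was taken as bud, since the read numbers that Additional file 3 lists by flower type stood in this order for 9 of 9 contigs, whereas the columns of Additional file 2 are headed in the opposite order, under which every direction below would be reversed. Annotations rest on the contig numbers of Additional file 2, and those of the 8 contigs could not be checked against sequence. Its read numbers were those of the same contig in the deposited table for 2 of 195 contigs. Of its 13 pairs of consecutive contig numbers 8 carried the same annotation, among them the aldolases. Annotations that differed only in the word precursor were taken as the same.

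In photosynthesis, light-harvesting complexes made of chlorophyll a/b-binding proteins pass light energy to the photosystems, and the captured energy drives the Calvin cycle, in which Rubisco binds carbon dioxide and aldolase joins and splits sugar phosphates. Bracts and young sepals can be green and photosynthetic, while petals and stamens depend largely on imported sucrose. In such sink organs sucrose synthase cleaves sucrose into fructose and an activated glucose, and fructokinase phosphorylates the fructose so that it can enter glycolysis. Small subunits of Rubisco and chlorophyll a/b-binding proteins are encoded in the nucleus by gene families whose members are very similar in sequence, so that reads of related genes may be divided among contigs.

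The photosynthesis contigs did not share a direction. Reads of the small subunit of Rubisco came from the bud library, those of the photosystem II 5 kDa protein and the chlorophyll a/b-binding contig00785 from the wt library, and the abundant chlorophyll a/b-binding contig03543 was read in both. Of the 4 sugar metabolism contigs, the fructokinase-like protein, the sucrose synthase and aldolase contig01255 had higher shares in bud, and aldolase contig01256 had a higher share in wt. With at least 2-fold as the limit, 4 of the 8 contigs were higher in bud and 3 were higher in wt. Among all 3947 contigs with at least 20 reads in both libraries together, 19.8% were at least 2-fold higher in bud and 14.0% in wt. All 8 contigs had at least 20 reads. As they were chosen from a list of differing contigs, nothing is read from the distance between these numbers. In whole flowers, fewer cells of a type and less RNA per cell cannot be told apart.

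**Figure D1:**
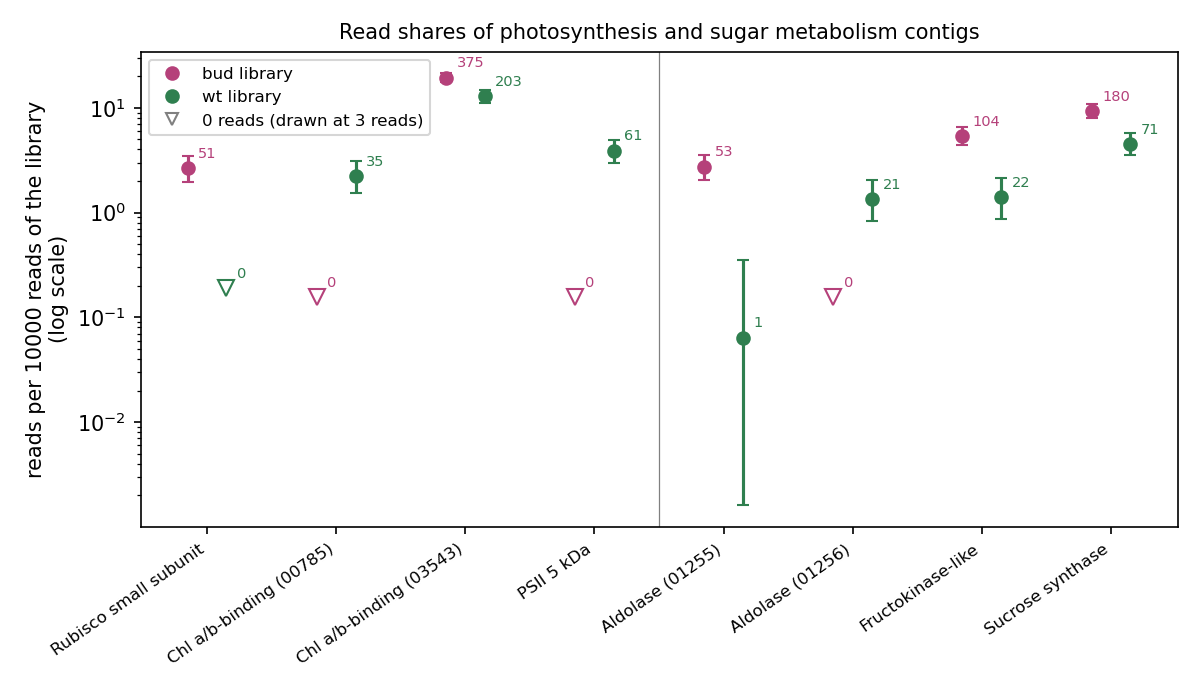
Reads per 10000 reads of the bud and the wt library for each of the 8 contigs, on a log scale, with exact 95% intervals and the read number beside each point. Open triangles mark 0 reads and are drawn at the share of 3 reads. Contig03543 and sucrose synthase had the highest shares in both libraries, and 4 contigs had 0 reads in a library.

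Contig00603, the small subunit of Rubisco, which together with the plastid-encoded large subunit forms the carbon dioxide-fixing enzyme, had 51 bud and 0 wt reads. Its share in bud was 2.64 per 10000 (1.96 to 3.47), 13.8-fold that of wt at the floor, with an exact lower limit of 10.8-fold. Transcripts of the small subunit are among the most abundant in green leaves, and with this share the contig stood at rank 661 of all contigs in the bud library.

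Contig03543, annotated as a chlorophyll a/b-binding protein, was by far the most abundant of the 8. It had 375 reads in bud, a share of 19.4 per 10000 (17.5 to 21.5), and 203 reads in wt, a share of 12.9 per 10000 (11.2 to 14.8). It took rank 23 in the bud and rank 50 in the wt library, and its share in bud was 1.502 times that in wt (1.26 to 1.79). Of the 8 contigs it alone lay within the 2-fold limit.

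Contig00785, annotated as a light-harvesting chlorophyll a/b-binding protein, had 0 bud and 35 wt reads, a share in wt of 2.23 per 10000 (1.55 to 3.10). The share in wt was 14.4-fold that of bud at the floor, with an exact lower limit of 11.1-fold. The contigs of these chlorophyll a/b-binding proteins thus had opposite directions, and the abundant contig03543 held 100% of their reads in bud and 85.3% in wt. Their sum was 375 reads for bud and 238 for wt, and the bud over wt ratio was 1.28 (1.09 to 1.51).

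The photosystem II 5 kDa protein (contig01100), a small nuclear-encoded protein of the photosystem, had 0 bud and 61 wt reads, a share in wt of 3.88 per 10000 (2.97 to 4.98). The share in wt was 25.0-fold that of bud at the floor, with an exact lower limit of 19.7-fold. Together, the light reaction contigs, that is the chlorophyll a/b-binding proteins and the 5 kDa protein, had a share of 19.4 per 10000 in bud against 19.0 in wt, with a bud over wt ratio of 1.02 (0.873 to 1.19). With the read sums as library totals, no difference of the summed reads of these 3 contigs was detectable, while taken alone they went in opposite directions. The reads in contigs of the separate assemblies and the reference genes as totals divide every bud over wt ratio by 1.25 and 1.27. The divisor of 1.25 exceeds the upper limit of 1.19. Under it, equal shares fell outside the interval of the sum, and wt had the larger summed share. The divisor of 1.27 also exceeds this limit, but it rests on 75 bud and 48 wt reads of the reference genes (0.873 to 1.87). Its counting error takes in divisors below the limit, so no direction of the sum is read under it.

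All 4 photosynthesis contigs summed to 426 reads in bud and 299 in wt, which is 22.0 and 19.0 per 10000. The ratio of 1.16 had an interval of 0.997 to 1.35 that includes equal shares, and it turned to 0.930 with the reads in contigs of the separate assemblies as library totals and to 0.912 with the reference genes as totals. It rested on contig03543. The other 3 contigs together had 51 bud and 96 wt reads and were 2.32 times higher in wt (1.63 to 3.32), a sum that was formed after the data were seen.

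The aldolases are annotated identically and have consecutive contig numbers. Contig01255 had 53 reads in bud, a share of 2.74 per 10000 (2.05 to 3.58), and 1 read in wt, so that the ratio of 43.1 is known no better than from 7.41 to 1733. Contig01256 had 0 bud and 21 wt reads, a share in wt of 1.34 per 10000 (0.827 to 2.04), 8.61-fold that of bud at the floor, with an exact lower limit of 6.41-fold. The libraries were thus almost mirror images over this pair. With their reads summed, the aldolases reached 53 reads for bud and 22 for wt, 2.74 and 1.40 per 10000, and a bud over wt ratio of 1.96 (1.17 to 3.38). The sum kept a higher share in bud, now just under the 2-fold limit. Over all consecutive numbers such mirror images were rare, with the aldolases among those counted. Within the 8 pairs of the same annotation, which come from a list of differing contigs, opposite directions were common. Among the 2048 pairs of consecutive contig numbers with at least 20 reads in each contig, 6 (0.293%) had at most 1 read in opposite libraries, and 112 (5.47%) were past the 2-fold limit in opposite directions. Another 150 pairs (7.32%) were past it in the same direction. Of the 8 pairs taken as the same annotation, that of osmotin-like proteins had 28 bud and 0 wt reads (contig00324) and 0 and 306 (contig00325, annotated as a precursor). The ribosomal protein L21 pair had 77 and 0 (contig01726) and 0 and 31 (contig01727). Pairs of ribosomal proteins L29-1 and S15, flavonol synthase and an unnamed protein (contig01471, contig01472) also passed the 2-fold limit in opposite directions. The GDSL esterase lipase pair lay within it. Whether contig01255 and contig01256 are alleles, splice forms or different genes was not tested.

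The fructokinase-like protein (contig00356) was read 104 times in bud and 22 times in wt, with shares of 5.38 (4.39 to 6.51) and 1.40 per 10000 (0.877 to 2.12). It was 3.84 times higher in bud (2.41 to 6.40). Sucrose synthase (contig03346), with 180 bud and 71 wt reads, had shares of 9.31 (7.995 to 10.8) and 4.52 per 10000 (3.53 to 5.70), a ratio of 2.06 (1.56 to 2.75). Both enzymes of sucrose use had higher shares in the library of the closed flowers, and neither was near 0 in wt. Their summed shares were 14.7 per 10000 for bud and 5.91 for wt, and the ratio was 2.48 (1.96 to 3.17).

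The 4 sugar metabolism contigs summed to 337 bud and 115 wt reads, 17.4 and 7.31 per 10000, a ratio of 2.38 (1.92 to 2.97). Without the aldolases the ratio was 2.48, and without sucrose synthase it was 2.90. All 8 contigs together had a share of 39.4 per 10000 in bud against 26.3 in wt, a ratio of 1.498 (1.33 to 1.69). Their median log2 ratio, with 0 reads set to 3, was 0.81, against 0.16 for all contigs with at least 20 reads. As the 8 were taken from a list of differing contigs, no shift toward bud is read from these medians.

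**Figure D2:**
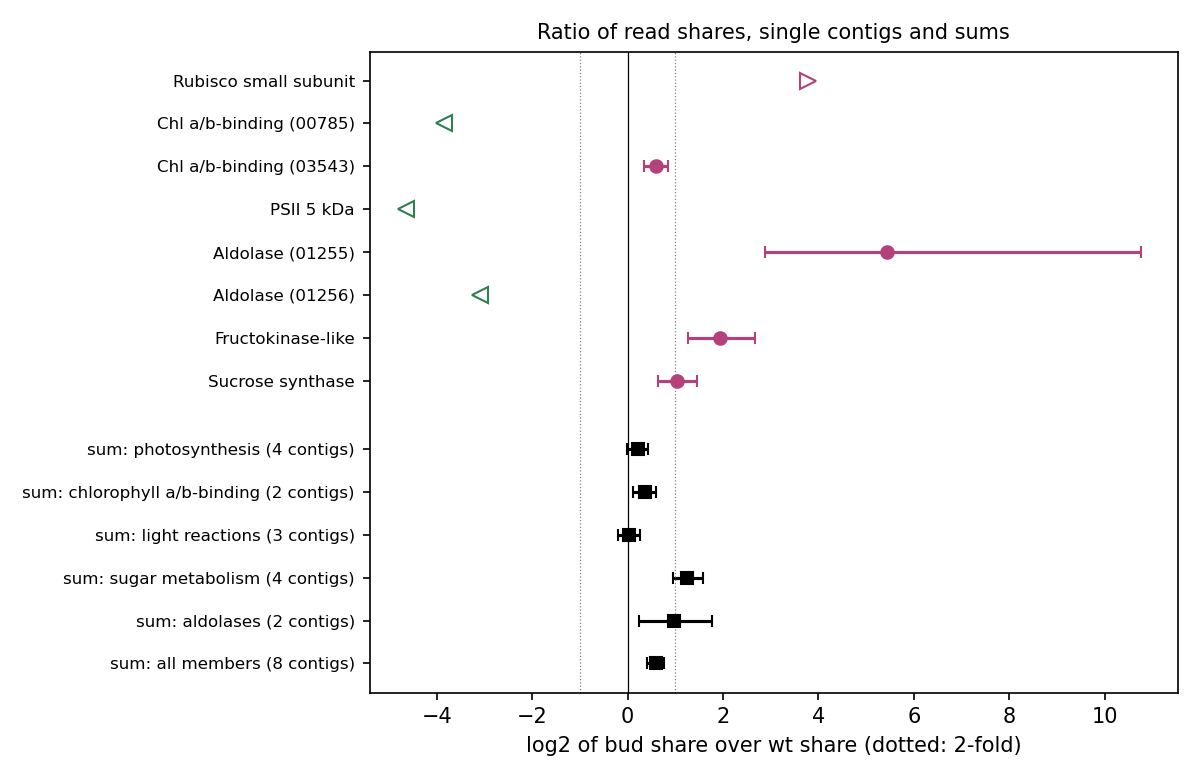
Log2 ratio of the bud share over the wt share for the 8 contigs (circles, with exact 95% intervals) and for sums of them (black squares). Open triangles are ratios with 0 reads set to the floor of 3 reads, pointing away from equal shares, and dotted lines mark 2-fold. Contigs lay on both sides of equal shares, aldolase contig01255 with its 1 wt read had the widest interval, and the 6 sums shown lay between ratios of 1.02 and 2.38.

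The contigs that were found in 1 library had fewer reads than the 3 most abundant of the 8, but more than the median contig of either library. They were contig00603, contig00785, contig01100 and contig01256, with 51, 35, 61 and 21 reads, 4 of the 8 contigs. In the table as a whole, 60 of the 3947 contigs that reached 20 reads had 0 reads in wt and 80 had 0 reads in bud, together 3.55%. The 3 contigs with over 100 reads had reads from both libraries and ratios between 1.502 and 3.84, all higher in bud. By the Audic-Claverie test with the threshold of the study (Bonferroni-adjusted p under 0.01), which compares these libraries and not the flower types, 4 of the 8 contigs were past the threshold with a higher share in bud and 3 in wt. Of all 11900 contigs tested, 1.41% were past it in bud and 1.48% in wt, and as the 8 contigs were chosen on this contrast nothing is read from these counts. Contig01256 with 21 reads was inside the threshold and contig03543 with 578 reads in both libraries together was outside it. As Additional file 2 lists contig03543 as differing, the test run here did not repeat every call of the study. If plants are assumed to vary with a coefficient of 0.2, 2 contigs in each direction were left, and with 0.4 none was.

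**Figure D3:**
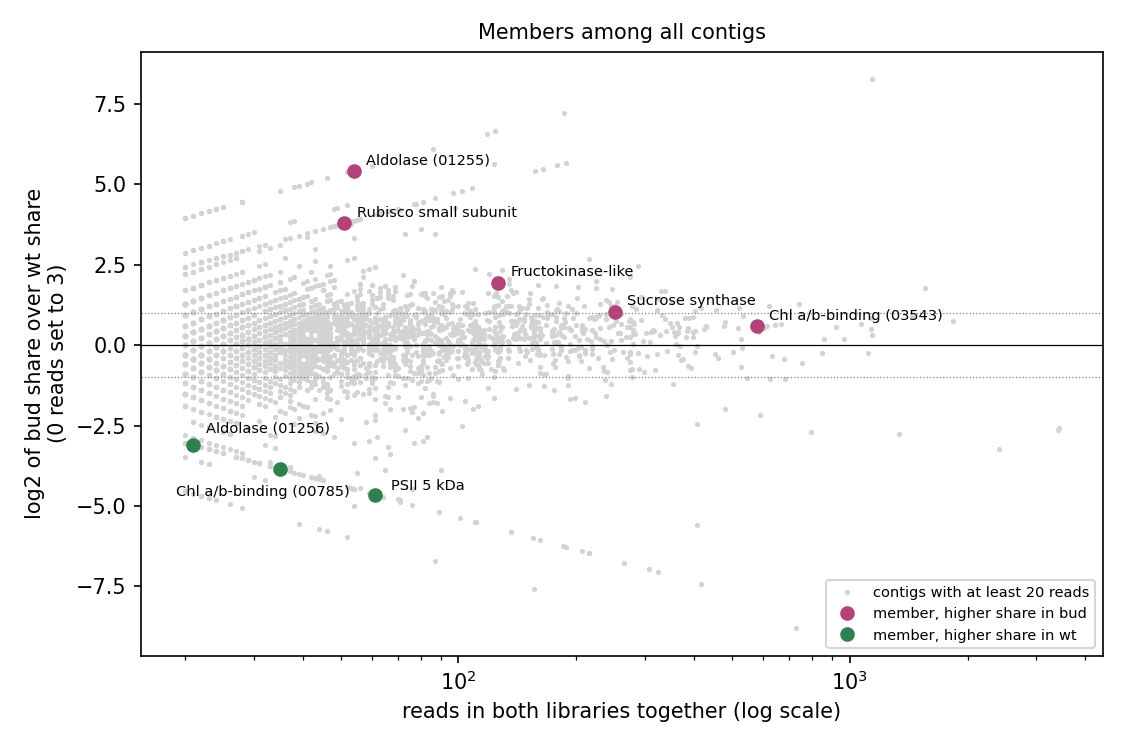
Log2 ratio of the bud share over the wt share against the reads in both libraries together (log scale) for the 3947 contigs with at least 20 reads (grey) and the 8 contigs of photosynthesis and sugar metabolism (coloured by the library with the higher share). The abundant contig03543, sucrose synthase and the fructokinase-like protein lie close to the main cloud on its upper side, and the others lie on the lines that contigs with 0 or 1 read in a library form.

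The contigs with numbers next to those of the 8 were examined, since consecutive numbers may hold pieces of related transcripts. Except for contig00357, they have no annotation here, and whether they belong to the same genes was not tested. Next to the photosystem II 5 kDa protein, contig01099 had 69 bud and 43 wt reads, and contig01101 had 27 and 2. Summed over these 3 numbers, the reads were 96 in bud and 106 in wt, which is 1.36 times higher in wt, against at least 19.7-fold for contig01100 alone. Next to the chlorophyll a/b-binding contig00785, contig00784 had 32 bud and 11 wt reads and contig00786 had 11 and 3. The sum of 43 reads in bud and 49 in wt was 1.40 times higher in wt, with a bud over wt interval of 0.462 to 1.10 that includes equal shares. For both photosynthesis contigs that were found in the wt library, the adjoining numbers thus had higher shares in bud, although the intervals of contig01099 and contig00786 include equal shares.

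Next to the small subunit of Rubisco, contig00602 had 21 bud and 8 wt reads and contig00604 had 56 and 13. Their directions were that of contig00603, and the 3 numbers together had 128 bud and 21 wt reads, a bud over wt ratio of 4.95 (3.11 to 8.28). At the next numbers on either side, contig00601 (0 reads in bud and 12 in wt) and contig00605 (6 and 17) had higher shares in wt. Around the fructokinase-like protein, contig00357, a pfkB-type carbohydrate kinase of the family to which fructokinases belong, had 49 bud and 8 wt reads, a ratio of 4.98 (2.34 to 12.2). Contig00358 had 20 and 2, while contig00355 had 19 and 27. The numbers next to sucrose synthase and to contig03543 had few reads, and the sums over 3 numbers left their ratios at 2.01 and 1.41. Before the aldolases, contig01254 had 38 bud and 14 wt reads, and after them contig01257 had 0 and 7. In all, 27 contigs lay within 2 numbers of the 8, and 20 of them had at least 20 reads. Of these, 7 were at least 2-fold higher in bud, 2 in wt and 11 within the limit. Over all contigs with at least 20 reads the shares were 19.8% in bud and 14.0% in wt. Adjoining numbers may hold pieces of the same transcript, so nothing is read from these counts. For 3 of the 27 contigs (contig00355, contig01254 and contig03345) the deposited share of a library differed from the share given by its read number by more than 0.06 per 10000. For the 8 contigs it did not.

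**Figure D4:**
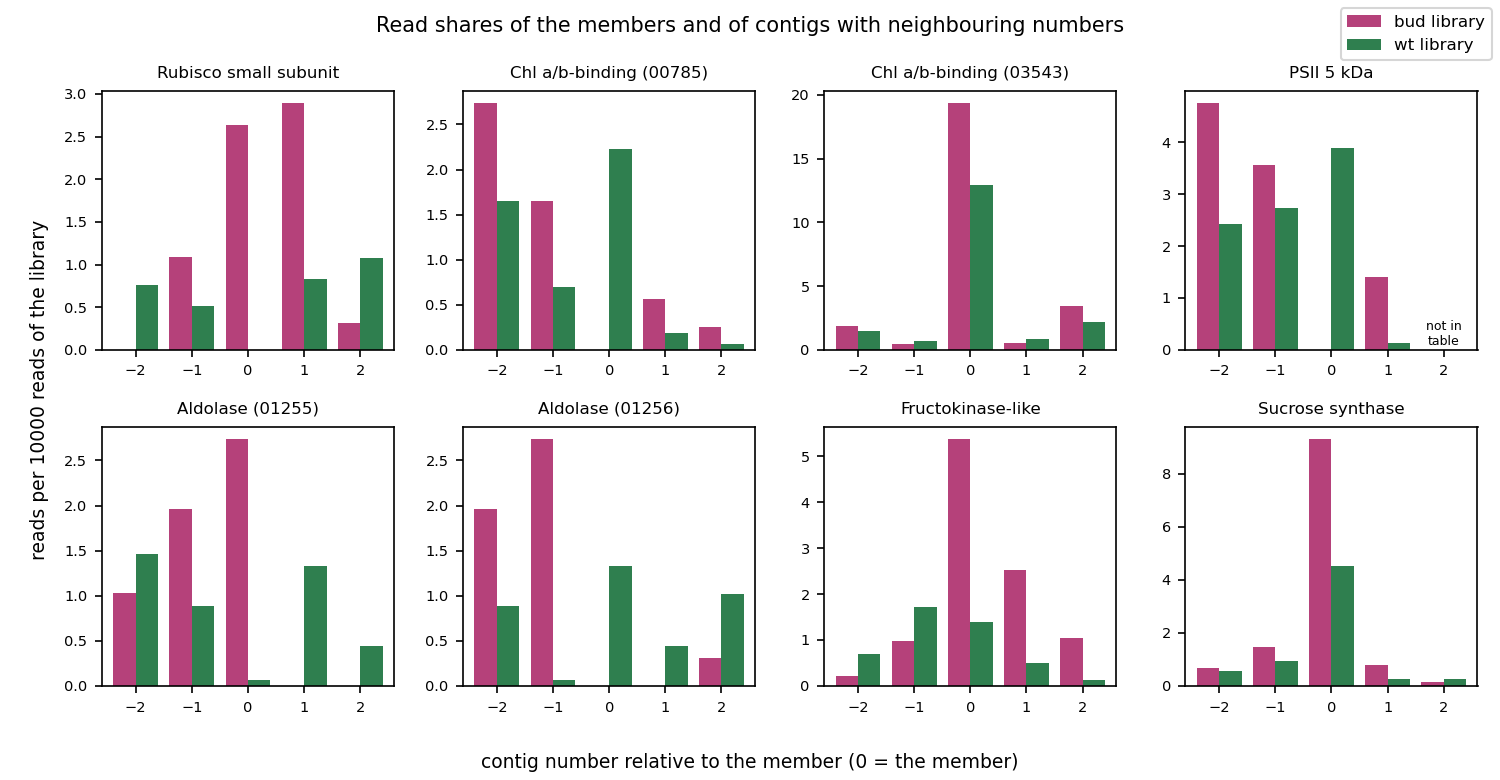
Reads per 10000 reads of the bud and the wt library for each of the 8 contigs (position 0) and the contigs up to 2 numbers below and above it. Next to the photosystem II 5 kDa protein and chlorophyll a/b-binding contig00785, which had 0 reads in bud, the adjoining numbers had higher shares in bud, and the aldolases show opposite libraries at adjoining numbers.

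Other annotated contigs of sugar metabolism, the plastid or electron transfer, 9 in Additional file 2 and chosen on the same libraries, were also divided. At least 2-fold higher were 4 in bud and 5 in wt, against 19.8% and 14.0% of all contigs with at least 20 reads. As Additional file 2 lists differing contigs, nothing is read from that distance. Their median log2 ratio of -1.88 was the value of the basic blue protein, and without it the median was -0.17. Those higher in bud included contig00357, already counted above as adjoining the fructokinase-like protein, which was not past the Audic-Claverie threshold. Of the others higher in bud, triosephosphate isomerase (contig01237), which interconverts the triose phosphates made by aldolase, had 24 bud and 0 wt reads. Phosphoglycerate kinase (contig01680) had 53 and 8, a ratio of 5.39 (2.54 to 13.1). Among those higher in wt, galactinol synthase (contig04545), which makes the galactosyl donor for raffinose, had 3 bud and 41 wt reads and was higher in wt by 16.8 times (5.36 to 84.9). An alpha-galactosidase (contig06404), which removes galactose from such sugars, had 4 and 28, 8.61 times higher in wt (3.01 to 33.8), and was not past the Audic-Claverie threshold. Among contigs of the plastid or of electron transfer, a light-regulated protein (contig03108) had 12 bud and 61 wt reads, a subunit of the chloroplastic Clp protease (contig03805) had 0 and 37, and a basic blue protein (contig04375), a copper protein, had 28 and 84. A further plastid contig annotated as cystathionine beta-, chloroplastic-like (contig03447) had 34 and 1.

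Petals and stamens were present in wt, so contigs linked to these organs were read beside the photosynthesis and sugar contigs. The B gene PISTILLATA (contig07420), which is required for petals and stamens, had 0 bud and 20 wt reads, and APETALA 3 (contig09453), a B gene that in heather is not restricted to these organs, had 15 and 21. Contigs annotated for pollen or tapetum had higher shares in bud, with 67 reads in bud and 0 in wt for a pollen-specific protein (contig01586) and 381 and 140 for a TAP1 precursor-like protein (contig03435). Of the further contigs whose function is connected with pollen or tapetum in Additional file 3, added after their values were seen, glycerol-3-phosphate acyltransferase 6 (contig00523) had 130 bud and 49 wt reads, 3-ketoacyl-synthase 6 (contig01282) had 182 and 64, and an E2FE-like transcription factor (contig08253) had 5 and 60. The acyltransferase is also listed there for cutin of sepals and petals, the ketoacyl-synthase for cuticular wax and the E2FE-like factor for cell proliferation. They therefore do not mark pollen or tapetum alone. Contigs linked to petals, stamens, pollen or tapetum thus did not share a direction. The part of organ composition in the differences above was not tested. The reference gene contigs of the study, actin (contig03212), TSa (contig04235), TATA binding protein (contig05402) and a disease resistance protein (contig02315), together had 75 bud and 48 wt reads, a ratio of 1.27 (0.873 to 1.87), so that they set the scale less precisely than the library sums.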

How the data were processed

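Young flowers of 'Maria' (bud) and F1 (wt) gave 1 cDNA library each, read by pyrosequencing from oligo(dT)-primed, PCR-amplified cDNA. Sequences of plastids, mitochondria, endophytes and rRNA were filtered by the authors, so that plastid-encoded transcripts are not counted. The reads were then assembled in GS DeNovoAssembler (Newbler) 2.5.3, and those of each library were mapped back to the contigs. The deposited counts are raw reads per contig. The deposited signal values, reads per 10000 from IDEG6, served as a check. The deposited p-value of the authors' own comparison was not used.

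After 3 repeated entries were removed, the counts of 12058 contigs were divided by their sums. Ratios of shares have exact 95% intervals (Clopper-Pearson on the split of reads). A contig was called at 2-fold with at least 20 reads in both libraries together. The two-sided Audic-Claverie test, conditional on bud, was run on the 11900 contigs with more than 2 reads with Bonferroni correction and used to place contigs inside or outside the threshold, with no p-value given. The 8 contigs, the lists, the limits and the rule for contigs named (the 8, those within 2 numbers of them, the annotated contigs of sugar, plastid and mitochondrial energy metabolism, organ markers and reference genes) were chosen with earlier results of these data known. The intervals and the test were tested on simulated reads drawn with counting error only. That check cannot show how they hold where plants vary or where PCR adds error. Alternatives were other library totals (among them TMM library sizes of edgeR and size factors of DESeq2), other floors, folds and read minimums, other tests and adjustments, an exact test in edgeR in which plants were assumed to vary, sums over adjoining contig numbers and the opposite library order. Python 3.11.15, numpy 2.4.6, pandas 2.3.3, scipy 1.17.1, matplotlib 3.10.9, R 4.3.3, edgeR 4.0.16 and DESeq2 1.42.0 were used. Contig sequences and the qRT PCR data were not analysed here. The RefSeq gene table was not used, as it does not name the contigs.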

Additional observations from a re-analysis of the deposited data

How the results depend on the processing

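With 1 library per flower type no replicate could be left out. No paired analysis was possible because each group has 1 library. With the library order of Additional file 2 all directions turned: the ratios became 0.0724 for contig00603, 14.4 for contig00785, 0.666 for contig03543, 25.0 for contig01100, 0.0232 for contig01255, 8.61 for contig01256, 0.260 for contig00356 and 0.485 for contig03346, and 0.511 for the summed aldolases, 0.864 for photosynthesis, 0.420 for sugar metabolism and 0.668 for all 8 contigs. The sum over photosynthesis also turned with the reads in contigs of the separate assemblies as totals (0.930), with the reference genes as totals (0.912) and without contig03543 (0.432, chosen after the data were seen). These totals, which divide every bud over wt ratio by 1.25 and 1.27, moved sugar metabolism to 1.91 and 1.88 and all 8 contigs to 1.20 and 1.18. Aldolase contig01256 turned to 1.49 when summed with the numbers below and above it, and under these sums 0 contigs were at least 2-fold higher in wt. With a minimum of 50 reads 1 contig was. Under the assumed coefficient of variation of 0.2, 2 contigs were past the threshold in bud, and with 0.4 these were 0 in bud and 0 in wt. With TMM library sizes, DESeq2 size factors and assembled reads as totals, the ratio of each of the 8 contigs stayed within its counting interval. Contig03543 fell below its interval (1.26 to 1.79) with the reads in contigs (1.21) and with the reference genes (1.18) as totals, while the other 7 stayed within theirs. Sucrose synthase, at 2.06, lost the 2-fold limit with 4 of the other totals. With a floor of 5 reads the folds of the 4 contigs with 0 reads fell below the lower limits of their exact intervals.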

Other observations

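The contigs of mitochondrial energy metabolism in Additional file 2, which uses the products of sugar breakdown, were also divided, with 2 contigs at least 2-fold higher in bud and 1 in wt. A cytochrome b-c1 subunit (contig01652) had 85 bud reads and 1 wt read, and the delta subunit of the mitochondrial ATP synthase (contig01332) had 38 and 1, a ratio of 30.9 that counting error leaves between 5.22 and 1252. Another mitochondrial ATP synthase subunit (contig00812) had 35 bud and 88 wt reads and was 3.09 times higher in wt (2.07 to 4.72). Of all contigs with at least 20 reads, 19.8% were at least 2-fold higher in bud and 14.0% in wt. These 3 contigs were chosen on the same libraries, so nothing is read from their number, and no test was made.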
